A study of Homo sapiens with 4 samples.

Results

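The genes described are 31 genes of sterol synthesis and its control by the SREBP transcription factors, of 57820 genes in the table. They were taken by symbol from a fixed list: 30 matched directly and 1, SC5DL, was read under its current symbol SC5D, of which SC5DL is a synonym in RefSeq. All 31 had a mean of at least 1 TPM (transcripts per 1000000) and were among the 12524 genes tested. RNA was sequenced from 786-0 cells, an established human renal carcinoma line, carrying a short hairpin RNA labelled against GLUD1 (shGLUD1, 2 libraries) or a non-targeting hairpin (shNT, 2 libraries). GLUD1 encodes mitochondrial glutamate dehydrogenase. All 4 libraries came from cells kept in DMEM with 10% fetal bovine serum and then starved of amino acids for 12 h. No fed cells were compared, so each value below is a difference between hairpins in starved cells. The labels do not say whether serum was present during starvation, whether more than 1 hairpin sequence was used, or whether replicates were separate cultures. The p-values therefore measure the spread between these libraries only, which may be technical.

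Cholesterol is built from acetyl-CoA through mevalonate and the isoprenoid pyrophosphates to squalene, which is closed into the sterol ring and then trimmed and reduced to cholesterol. The SREBP proteins are made as membrane precursors in the endoplasmic reticulum. When sterols are short, the escort protein SCAP carries them to the Golgi, where the site-1 and site-2 proteases release the active factor; when sterols are plentiful, the INSIG proteins hold SCAP back. The liver X receptors respond to oxysterols in the other direction and drive cholesterol export. SREBP sites usually act together with nearby CCAAT boxes, which bind NF-Y, and GC boxes, which bind Sp1.

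Promoter sequence was read for the members that RefSeq lists, from 250 bases before to 50 bases after the transcription start. Of the 31 genes, 28 had such a window on GRCh38.p14. Those of 4 genes are shown 5′ to 3′ on the gene's own strand, as examples of the genes compared: SREBF2, a regulator that holds a sterol element itself; MSMO1, a sterol enzyme that rose; MVD, the gene of this set that fell; and INSIG1, the feedback inhibitor. Capitals mark CCAAT boxes (CCAAT or, on the other strand, ATTGG) and, in SREBF2, the sterol regulatory element searched as TCACNCCAC or GTGGNGTGA.
SREBF2 (chr22:41832855-41833154, plus strand): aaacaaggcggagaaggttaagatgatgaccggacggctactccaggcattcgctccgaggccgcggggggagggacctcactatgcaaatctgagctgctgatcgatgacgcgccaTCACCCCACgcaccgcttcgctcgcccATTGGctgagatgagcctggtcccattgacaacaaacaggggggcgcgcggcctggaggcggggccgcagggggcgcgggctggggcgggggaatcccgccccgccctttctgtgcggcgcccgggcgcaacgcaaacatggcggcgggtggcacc
MSMO1 (chr4:165327419-165327718, plus strand): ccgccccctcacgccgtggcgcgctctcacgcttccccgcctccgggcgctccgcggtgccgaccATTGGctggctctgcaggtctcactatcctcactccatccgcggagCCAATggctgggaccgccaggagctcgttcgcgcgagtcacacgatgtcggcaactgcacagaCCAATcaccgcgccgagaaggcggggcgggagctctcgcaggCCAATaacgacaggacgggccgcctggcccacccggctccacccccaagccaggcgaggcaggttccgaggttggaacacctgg
MVD (chr16:88663042-88663341, minus strand): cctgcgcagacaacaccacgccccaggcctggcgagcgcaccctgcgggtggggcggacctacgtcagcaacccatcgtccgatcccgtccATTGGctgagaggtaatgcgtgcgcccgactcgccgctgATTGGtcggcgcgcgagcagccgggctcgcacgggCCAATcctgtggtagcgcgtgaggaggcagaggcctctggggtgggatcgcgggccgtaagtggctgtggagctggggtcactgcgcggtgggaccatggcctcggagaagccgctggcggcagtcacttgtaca
INSIG1 (chr7:155297628-155297927, plus strand): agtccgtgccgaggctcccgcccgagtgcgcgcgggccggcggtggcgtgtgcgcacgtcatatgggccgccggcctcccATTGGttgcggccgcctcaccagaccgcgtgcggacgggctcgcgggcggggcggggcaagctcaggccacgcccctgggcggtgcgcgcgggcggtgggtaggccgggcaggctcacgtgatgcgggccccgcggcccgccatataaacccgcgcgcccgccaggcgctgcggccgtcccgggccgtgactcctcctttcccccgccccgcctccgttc

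At least 1 CCAAT box was found for 18 of the 28 genes (64.3%), against 43.8% of the 8425 tested genes with a window and 34.6% of all 35093 windows. MVK and NSDHL held 5 CCAAT boxes each, MSMO1 held 4, and MVD, EBP, FDPS and IDI1 held 3. The sterol element in this spelling was found in 1 gene, SREBF2, against 1.5% of the tested genes and 1.13% of all windows. GC boxes (GGGCGG or CCGCCC, which may overlap one another) were found for 24 of the 28 genes (85.7%), against 78.1% of the tested genes and 44.9% of all windows. Genes with several windows were counted once, by their window with the most matches. E-boxes (CACGTG, the same on both strands), which SREBP can also bind, were found for 5 of the 28 genes (17.9%), against 12.8% of the tested genes and 7.26% of all windows. These counts describe letters in the window; they do not show binding, and other spellings were not searched.

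On TPM as deposited, 21 of the 31 genes rose in shGLUD1, 1 fell and 9 did not pass (limma on log2(TPM + 1), Benjamini-Hochberg adjusted p under 0.05 over all genes tested). In the same fit 56.7% of all 12524 genes rose and 7.77% fell, so the members' shares of 67.7% and 3.23% stand beside a background in which most genes were higher. The median log2 fold change was 0.70 over the members and 0.63 over all genes tested, and 17 of the 31 lay above the median gene. When the libraries were rescaled by median ratios, which sets the change of the median gene to about 0, 4 members were higher (FDFT1, SQLE, MBTPS1 and MBTPS2), 9 were lower and 18 did not pass. The background there was 23.2% higher and 27.9% lower. In RNA from whole cultures, a change in all cells and a change in the share of some cells cannot be told apart. Directions are given below on TPM, with the rescaled value as the change relative to the median gene.

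The shift of the median gene went with other properties of the libraries. Median TPM of the tested genes was 9.82 and 11.6 in the shGLUD1 libraries, against 5.77 and 5.885 in the shNT libraries. GLUD1 itself measured 13.5 and 19.8 TPM in the libraries labelled shGLUD1, against 18.1 and 17.4 TPM in the shNT libraries. The groups overlap, and the log2 fold change of -0.11 (SE 0.19) did not pass (limma adjusted p = 0.631); rescaled it was -0.83 (limma adjusted p = 0.00234). In what follows shGLUD1 means the libraries with that label, and every direction rests on it. Among markers of renal carcinoma cells, PAX8, VIM and EPAS1 had a mean of at least 1 TPM, while PAX2 was at or near 0. Endothelial markers summed to at most 0.15 TPM in either group, and hepatocyte markers to at most 0.3 TPM in the shGLUD1 libraries and 0.64 TPM in the shNT libraries. The blood list summed to between 209 and 241 TPM in shGLUD1 and between 147 and 159 TPM in shNT, nearly all of it CD68, a lysosomal protein that is also made outside blood, while PTPRC was at 0 or 0.01 TPM.

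**Figure D1:**
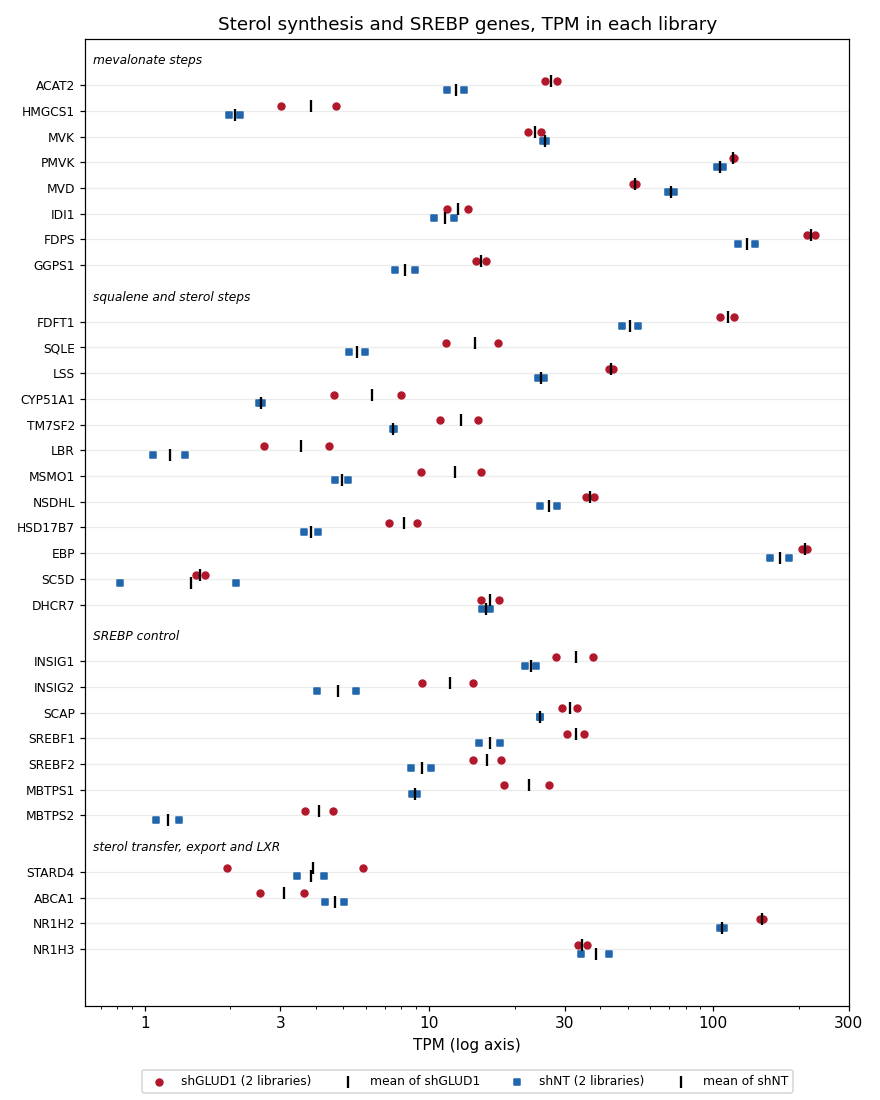
TPM of each of the 31 genes on a log axis, with shGLUD1 libraries as circles above the shNT libraries as squares in each row, and short vertical bars for the group means; genes are grouped by role. In 23 genes both shGLUD1 libraries lie right of both shNT libraries, in 3 both lie left of them, and in 5 the groups overlap.

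TPM are corrected for transcript length, so the levels of different genes can be set side by side. In shGLUD1 the order of the mean levels began with FDPS (220 TPM), EBP (210 TPM), NR1H2 (148 TPM), PMVK (118 TPM) and FDFT1 (112 TPM), and in shNT with EBP (171 TPM), FDPS (131 TPM), NR1H2 (108 TPM), PMVK (106 TPM) and MVD (71.1 TPM). FDPS and EBP did not separate within shGLUD1, where EBP was at 214 and 205 TPM and FDPS at 214 and 227 TPM. At the low end, SC5D had 1.57 TPM and ABCA1 3.1 TPM in shGLUD1, and MBTPS2 had 1.21 TPM and LBR 1.23 TPM in shNT. The 31 genes together held 1251 and 1335 TPM in the shGLUD1 libraries and 962 and 893 TPM in the shNT libraries. Mevalonate steps took 37.0% and 36.2% of that sum in the shGLUD1 libraries, against 39.7% and 39.6% in the shNT libraries. Genes of SREBP control took 11.4% and 12.1% in the shGLUD1 libraries, against 9.13% and 9.92% in the shNT libraries. Groups did not overlap in 26 of the 31 genes: 23 were higher in both shGLUD1 libraries, where the background over all genes was 69.9%, and 3 were lower in both, where it was 13.5%.

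Of the 8 genes of the mevalonate steps, 4 rose on TPM, 1 fell and 3 did not pass, where 56.7% of all genes tested rose. Their median log2 fold change was 0.40, below that of 0.63 over all genes. ACAT2, the cytosolic acetoacetyl-CoA thiolase that starts the route, was at 25.6 and 28.3 TPM in the shGLUD1 libraries, against 13.3 and 11.5 TPM in the shNT libraries. The groups do not overlap, with a mean in shGLUD1 of 2.17 times that in shNT, and the log2 fold change was 1.06 (SE 0.16, adjusted p = 0.000243; rescaled 0.34, not passed). ACAT2 shares 397 exon bases with TCP1, a chaperonin subunit gene on the opposite strand that also rose (0.87), and counting by strand is not stated, so reads in the shared bases may belong to either gene. HMGCS1, the cytosolic HMG-CoA synthase, was at 3.02 and 4.7 TPM in the shGLUD1 libraries, against 1.98 and 2.17 TPM in the shNT libraries. It lay just inside the threshold (log2 fold change 0.64, SE 0.26, adjusted p = 0.0483; rescaled 0.076, not passed), and the call was lost without shGLUD1 replicate 2 (0.39, adjusted p = 0.175), shNT replicate 1 (0.60, 0.216) or shNT replicate 2 (0.68, 0.149), each with its adjusted p. It was also lost with trends in transcript length and GC content removed (0.39, adjusted p = 0.137).

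The 4 genes between HMG-CoA synthase and farnesyl pyrophosphate had TPM close to or below those of shNT. MVK, mevalonate kinase, was at 22.4 and 24.7 TPM in the shGLUD1 libraries, against 25.1 and 25.9 TPM in the shNT libraries. The shGLUD1 libraries were both below the shNT ones, but by little, and the log2 fold change of -0.11 (95% interval -0.43 to 0.20) did not pass. PMVK, phosphomevalonate kinase, was at 118 and 117 TPM in the shGLUD1 libraries, against 108 and 103 TPM in the shNT libraries (0.15, 95% interval -0.075 to 0.37, not passed). MVD, the decarboxylase that makes isopentenyl pyrophosphate, was at 53.6 and 52.2 TPM in the shGLUD1 libraries, against 72.8 and 69.4 TPM in the shNT libraries. It was the 1 member that fell on TPM (log2 fold change -0.42, SE 0.11, adjusted p = 0.00787). That call was lost without shNT replicate 1 (-0.38, adjusted p = 0.0949) and with length and GC trends removed (-0.066, adjusted p = 0.657). IDI1, which interconverts the isopentenyl and dimethylallyl forms, was at 11.6 and 13.7 TPM in the shGLUD1 libraries, against 12.3 and 10.4 TPM in the shNT libraries, with overlapping groups. Relative to the median gene all 4 were lower, with rescaled log2 fold changes of -0.84 for MVK, -0.61 for PMVK, -1.17 for MVD and -0.56 for IDI1 and limma adjusted p between 0.000247 and 0.0138. PMVK did not pass under quantile normalization (-0.13, limma adjusted p = 0.278), and it rose once length and GC trends were removed (0.60, limma adjusted p = 0.000632). MVK shares 306 exon bases with MMAB, a cobalamin enzyme gene on the opposite strand, which was at 85.0 and 73.7 TPM in the shGLUD1 libraries and 109 and 113 TPM in the shNT libraries.

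FDPS, which joins isoprene units into farnesyl pyrophosphate, was at 214 and 227 TPM in the shGLUD1 libraries, against 140 and 122 TPM in the shNT libraries. It rose on TPM (log2 fold change 0.75, SE 0.11, adjusted p = 0.000173), with a rescaled value of -0.012, at the median gene. Under quantile normalization, however, FDPS was higher (0.575, limma adjusted p = 0.00323), where the median gene was at 0.038. GGPS1, which extends that product to geranylgeranyl pyrophosphate for protein prenylation, was at 14.7 and 15.9 TPM in the shGLUD1 libraries, against 7.59 and 8.92 TPM in the shNT libraries. The groups were well apart (0.82, SE 0.18, adjusted p = 0.00262; rescaled 0.12, not passed).

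Of the 12 genes that make squalene and finish the sterol, 10 rose on TPM, none fell and 2 did not pass. The background over all genes tested was 56.7% higher and 7.77% lower. The 12 genes had a median log2 fold change of 0.85, and 8 of them lay above the median gene. After rescaling, 2 were higher and 2 lower (16.7% each), against 23.2% and 27.9% of all genes. FDFT1, squalene synthase, which commits farnesyl pyrophosphate to sterols (chromosome 8, 11795573 to 11839309, plus strand), was at 106 and 119 TPM in the shGLUD1 libraries, against 54.4 and 47.9 TPM in the shNT libraries. It rose by a log2 fold change of 1.12 (SE 0.12, adjusted p = 3.3e-05) and stayed higher relative to the median gene (rescaled 0.37, limma adjusted p = 0.0295). SQLE, squalene epoxidase, the first oxygen-requiring step, was at 11.5 and 17.5 TPM in the shGLUD1 libraries, against 5.23 and 5.95 TPM in the shNT libraries. Both shGLUD1 libraries were above both shNT libraries, though the pair differed between themselves (1.21, SE 0.23, adjusted p = 0.00092; rescaled 0.53, limma adjusted p = 0.0356). LSS, which closes the ring to lanosterol, was at 42.9 and 44.4 TPM in the shGLUD1 libraries, against 25.4 and 24.1 TPM in the shNT libraries (0.79, SE 0.13, adjusted p = 0.000427; rescaled 0.054, not passed).

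The enzymes that trim lanosterol include CYP51A1, MSMO1, NSDHL and HSD17B7, and all 4 rose on TPM. CYP51A1, the lanosterol demethylase, was at 4.63 and 7.96 TPM in the shGLUD1 libraries, against 2.59 and 2.52 TPM in the shNT libraries. MSMO1, the methyl sterol oxidase, was at 9.37 and 15.3 TPM in the shGLUD1 libraries, against 4.67 and 5.18 TPM in the shNT libraries. In both genes shGLUD1 replicate 2 was the higher of its pair, and all shGLUD1 values were above all shNT values. They rose by log2 fold changes of 1.00 (SE 0.27) and 1.13 (SE 0.24), with limma adjusted p of 0.00716 and 0.00199, and their rescaled values of 0.39 and 0.46 missed the threshold. NSDHL, the dehydrogenase that works with MSMO1, was at 35.7 and 38.1 TPM in the shGLUD1 libraries, against 28.1 and 24.6 TPM in the shNT libraries. HSD17B7, the 3-ketosteroid reductase of the same complex, was at 7.22 and 9.08 TPM in the shGLUD1 libraries, against 3.64 and 4.07 TPM in the shNT libraries. Both rose (0.47 and 0.91, limma adjusted p = 0.0115 and 0.00432), neither passed after rescaling (-0.26 and 0.26), and both lost their call when 1 library was left out: NSDHL without shGLUD1 replicate 2 (0.43, adjusted p = 0.0534) or shNT replicate 2 (0.38, adjusted p = 0.154), and HSD17B7 without shNT replicate 1 (0.84, adjusted p = 0.0533).

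TM7SF2 and LBR encode the pair of enzymes with C14 sterol reductase activity; LBR is also the lamin B receptor of the inner nuclear membrane. TM7SF2 was at 11.0 and 14.9 TPM in the shGLUD1 libraries, against 7.54 and 7.46 TPM in the shNT libraries. LBR was at 2.63 and 4.45 TPM in the shGLUD1 libraries, against 1.39 and 1.07 TPM in the shNT libraries. Neither gene's groups overlap, and the log2 fold changes were 0.70 (SE 0.20, adjusted p = 0.0109) and 1.00 (SE 0.27, adjusted p = 0.00816), with rescaled values of 0.0057 and 0.49 that missed the threshold. TM7SF2 lost its call without shGLUD1 replicate 2 (0.49, adjusted p = 0.061), shNT replicate 1 (0.71, 0.0648) or shNT replicate 2 (0.69, 0.0649), and LBR without shNT replicate 2 (0.90, 0.0543).

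The last steps of the route are EBP, SC5D and DHCR7. EBP, the sterol isomerase, was at 214 and 205 TPM in the shGLUD1 libraries, against 184 and 158 TPM in the shNT libraries. It rose on TPM (log2 fold change 0.30, SE 0.11, adjusted p = 0.0298) but was lower relative to the median gene (-0.46, limma adjusted p = 0.0222), and the TPM call was lost without shGLUD1 replicate 1 (0.27, adjusted p = 0.111), shGLUD1 replicate 2 (0.33, 0.0756) or shNT replicate 2 (0.18, 0.341). EBP was not lower under quantile normalization (0.133, limma adjusted p = 0.329), where the median gene was at 0.038. SC5D, the sterol desaturase, was at 1.63 and 1.51 TPM in the shGLUD1 libraries, against 0.82 and 2.09 TPM in the shNT libraries, so its shNT values enclosed the shGLUD1 values. DHCR7, which reduces 7-dehydrocholesterol to cholesterol, was at 15.3 and 17.6 TPM in the shGLUD1 libraries, against 16.4 and 15.3 TPM in the shNT libraries. Neither passed: the 95% intervals of the log2 fold change were -0.53 to 0.76 for SC5D and -0.31 to 0.41 for DHCR7. Rescaled, DHCR7 was lower (-0.67, limma adjusted p = 0.00341).

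**Figure D2:**
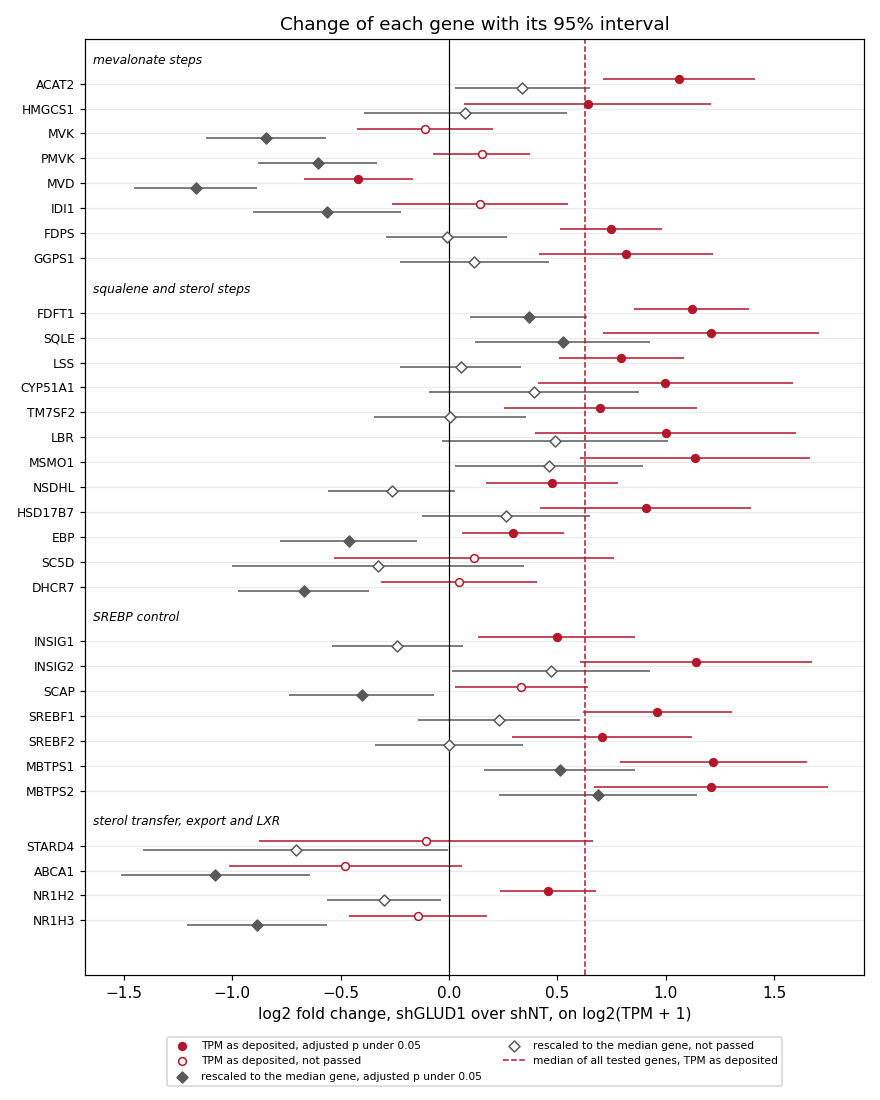
Log2 fold change of shGLUD1 over shNT for each gene, with 95% intervals from limma, on TPM as deposited (circles, upper mark of each row) and after rescaling to the median gene (diamonds, lower mark); filled marks passed an adjusted p of 0.05. The dashed line is the median of all tested genes on TPM, 0.63; most genes of the squalene and sterol steps lie right of it, and MVK, PMVK, MVD and IDI1 lie left of it.

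Of the 7 genes that control SREBP, 6 rose on TPM and 1, SCAP, did not pass, where 56.7% of all genes tested rose. Their median log2 fold change was 0.96, and 5 of the 7 lay above the median gene. After rescaling, 2 of the 7 were higher (28.6%) and 1 lower (14.3%), against 23.2% and 27.9% of all genes. MBTPS1, the site-1 protease, was at 18.4 and 26.4 TPM in the shGLUD1 libraries, against 9.1 and 8.73 TPM in the shNT libraries. MBTPS2, the site-2 protease, was at 3.66 and 4.58 TPM in the shGLUD1 libraries, against 1.1 and 1.32 TPM in the shNT libraries, a ratio of mean TPM of 3.41. Both were clearly separated between groups. They rose by log2 fold changes of 1.22 (SE 0.20, adjusted p = 0.000363) and 1.21 (SE 0.25, adjusted p = 0.00154), and both stayed higher relative to the median gene (rescaled 0.51 and 0.69, limma adjusted p = 0.0221 and 0.0199). MBTPS1 and FDFT1 were the 2 members called higher in each of 4 fits, those on TPM, on rescaled values, on quantile-normalized values and after removal of length and GC trends. Over the genes in all 4 fits, 18.8% were called higher in this way.

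SREBF1 and SREBF2 encode the SREBP precursors, of which SREBP-2 is known mainly for sterol genes and SREBP-1 for fatty acid genes as well. SREBF1 was at 35.2 and 30.7 TPM in the shGLUD1 libraries, against 15.1 and 17.8 TPM in the shNT libraries. SREBF2 was at 14.3 and 17.9 TPM in the shGLUD1 libraries, against 10.2 and 8.68 TPM in the shNT libraries. Both rose without overlap of the groups, by 0.96 (SE 0.16, adjusted p = 0.000385) and 0.71 (SE 0.19, adjusted p = 0.00706), and neither passed after rescaling (0.23 and 0.0013). SREBF2 lost its call without shGLUD1 replicate 2 (0.55, adjusted p = 0.0513) or shNT replicate 2 (0.60, adjusted p = 0.0822). SREBF1 shares 556 exon bases with RAI1, a nuclear regulator gene on the opposite strand that rose too, by 1.41. In all, 15 of the 31 genes share exon bases with another gene, and in 4 of them the partner averaged at least 5 TPM: TCP1, MMAB, VPS51 (16 bases of TM7SF2, same strand, -0.091, not passed) and ACP2 (189 bases of NR1H3, opposite strand), which rose by 0.44 (limma adjusted p = 0.0459).

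SCAP was at 33.1 and 29.5 TPM in the shGLUD1 libraries, against 24.6 and 24.7 TPM in the shNT libraries. It lay just outside the threshold (log2 fold change 0.33, SE 0.14, adjusted p = 0.0556), passed without shGLUD1 replicate 2 (0.41, limma adjusted p = 0.04), and was lower relative to the median gene (-0.40, limma adjusted p = 0.0476). SCAP did not pass under quantile normalization (-0.24, limma adjusted p = 0.215). INSIG1, itself a textbook SREBP target, was at 28.1 and 37.8 TPM in the shGLUD1 libraries, against 23.8 and 21.8 TPM in the shNT libraries. INSIG2, whose mRNA is known to depend less on SREBP, was at 9.44 and 14.3 TPM in the shGLUD1 libraries, against 4.05 and 5.53 TPM in the shNT libraries. Both rose, INSIG1 by 0.50 (SE 0.16, adjusted p = 0.0208) and INSIG2 by 1.14 (SE 0.24, adjusted p = 0.00203). The INSIG1 call was lost without shGLUD1 replicate 2 (0.29, adjusted p = 0.123), without shNT replicate 2 (0.44, adjusted p = 0.111) and with length and GC trends removed (0.23, adjusted p = 0.199), whereas INSIG2 passed in each of these fits. Rescaled, neither passed (-0.24 and 0.47).

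Among the 4 genes of sterol transfer, export and LXR, 1 rose and 3 did not pass, where 56.7% of all genes tested rose. Their median log2 fold change was -0.12, and none lay above the median gene. After rescaling, 2 of the 4 were lower and none higher, against 27.9% and 23.2% of all genes. STARD4, a soluble cholesterol carrier, was at 1.95 and 5.85 TPM in the shGLUD1 libraries, against 4.27 and 3.44 TPM in the shNT libraries. The shGLUD1 pair lay on either side of both shNT values, and the 95% interval of -0.88 to 0.67 sets no direction. ABCA1, the cholesterol exporter and a textbook LXR target, was at 2.55 and 3.64 TPM in the shGLUD1 libraries, against 4.3 and 5.03 TPM in the shNT libraries. Both shGLUD1 values were below both shNT values; the TPM log2 fold change of -0.48 (SE 0.24) did not pass (limma adjusted p = 0.106), while it was lower after rescaling (-1.08, limma adjusted p = 0.0021) and with length and GC trends removed (-0.85, limma adjusted p = 0.00402). NR1H2, the widely expressed LXR beta, was at 146 and 150 TPM in the shGLUD1 libraries, against 106 and 109 TPM in the shNT libraries, and rose (0.46, SE 0.10, adjusted p = 0.00235; rescaled -0.30, not passed). NR1H3, LXR alpha, was at 33.5 and 35.9 TPM in the shGLUD1 libraries, against 43.0 and 34.2 TPM in the shNT libraries, with overlapping groups on TPM (-0.14, not passed) and a lower value after rescaling (-0.88, limma adjusted p = 0.00132). With MVK, MVD, IDI1 and DHCR7, ABCA1 and NR1H3 make the 6 members called lower on both the rescaled and the quantile-normalized values, where 20.2% of all genes were.

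Ratios between genes in the same library do not change when the whole library is multiplied by a factor, as in median-ratio rescaling. Quantile normalization is not such a factor and can change them. The ratios on TPM show where members parted from each other. The ratio of FDPS to MVD was 3.98 and 4.35 in the shGLUD1 libraries, against 1.93 and 1.76 in the shNT libraries. The ratio of FDFT1 to MVD was 1.97 and 2.27 in the shGLUD1 libraries, against 0.747 and 0.691 in the shNT libraries, so squalene synthase transcripts outnumbered those of the decarboxylase in shGLUD1 and not in shNT. INSIG2 stood at 0.336 and 0.38 of INSIG1 in the shGLUD1 libraries, against 0.17 and 0.254 in the shNT libraries. MBTPS1 relative to SCAP was 0.556 and 0.896 in the shGLUD1 libraries, against 0.37 and 0.354 in the shNT libraries. These 4 ratios did not overlap between groups and differed by 2.26, 2.95, 1.72 and 1.95 times. LBR relative to TM7SF2 was 0.24 and 0.299 in the shGLUD1 libraries, against 0.184 and 0.143 in the shNT libraries. These 2 transcripts differ in length and GC content (3812 nt at 37.8% GC and 1722 nt at 62.0% GC). With length and GC trends removed, LBR rose less (0.82) than TM7SF2 (1.07), the reverse of their order on TPM. NR1H3 relative to NR1H2 was 0.229 and 0.239 in the shGLUD1 libraries, against 0.406 and 0.313 in the shNT libraries. SREBF1 relative to SREBF2 overlapped, at 2.47 and 1.72 in the shGLUD1 libraries and 1.48 and 2.05 in the shNT libraries. The pairs were chosen with the values known, and with 2 libraries against 2 an exact permutation test of 1 ratio cannot give a two-sided p below 0.333, so the ratios are given without a test.

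**Figure D3:**
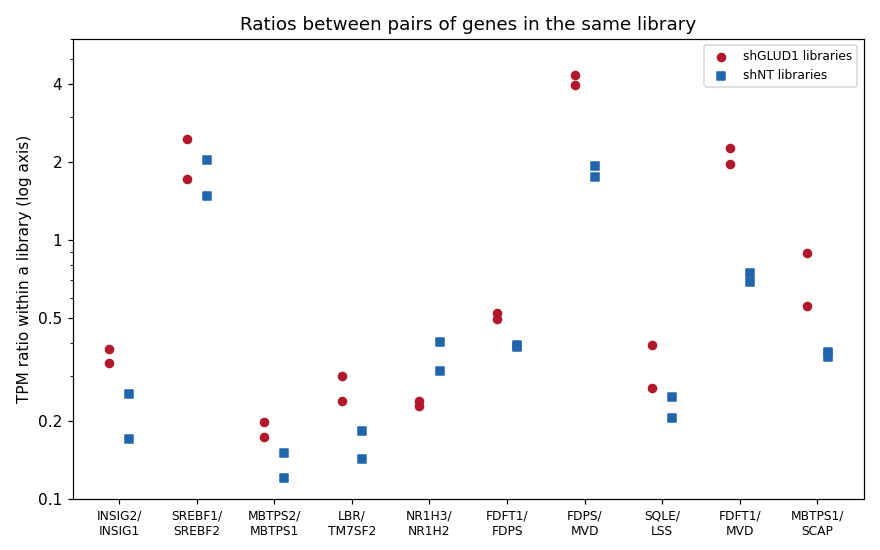
TPM of one gene divided by that of another in the same library, on a log axis, with shGLUD1 libraries as circles left of the shNT libraries as squares, for 10 pairs. The ratios of FDPS and FDFT1 to MVD are far apart between the groups, and SREBF1 to SREBF2 overlaps.

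Transcript composition moved with the changes. Over the 12258 tested genes with an annotated transcript, Spearman's rho of the log2 fold change was 0.39 with length and -0.20 with GC content; over the 31 members it was 0.10 with length and -0.33 with GC content. These are descriptions across genes that share the same 4 libraries. MVD and PMVK are both short and GC-rich (1823 nt at 65.6% GC and 1280 nt at 59.5% GC), and MBTPS2 is longer and GC-poor (4457 nt at 35.9% GC). Like MVD and PMVK, NR1H2 (1998 nt at 63.0% GC) is short and GC-rich, and its rise of 0.46 was below the median gene at 0.63. Other members went against these trends. TM7SF2 (1722 nt at 62.0% GC) is short and GC-rich and rose by 0.70, just above the median gene. STARD4 is longer and GC-poor (4606 nt at 34.2% GC), with a log2 fold change of -0.11 that did not pass. All genes were split by GC content into 3 bins of equal size, below 45.1%, up to 54.6% and above. The members' median log2 fold change was 0.91 for the 10 in the low bin, 0.91 for the 9 in the middle bin and 0.40 for the 12 in the high bin, beside 0.79, 0.68 and 0.41 for all genes of these bins. With both trends removed, 20 members were higher and 1 lower, against 60.4% and 6.08% of all genes; 19 of the 21 that rose on TPM were called higher again, HMGCS1 and INSIG1 were not, and PMVK was added. None of the ratios between genes, those of FDPS and FDFT1 to MVD included, was corrected for length or GC content. With both trends removed, the log2 fold changes were 1.06 for FDPS, 0.95 for FDFT1 and -0.066 for MVD. On TPM they were 0.75, 1.12 and -0.42. The part of length and GC content in the ratios was not tested.

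**Figure D4:**
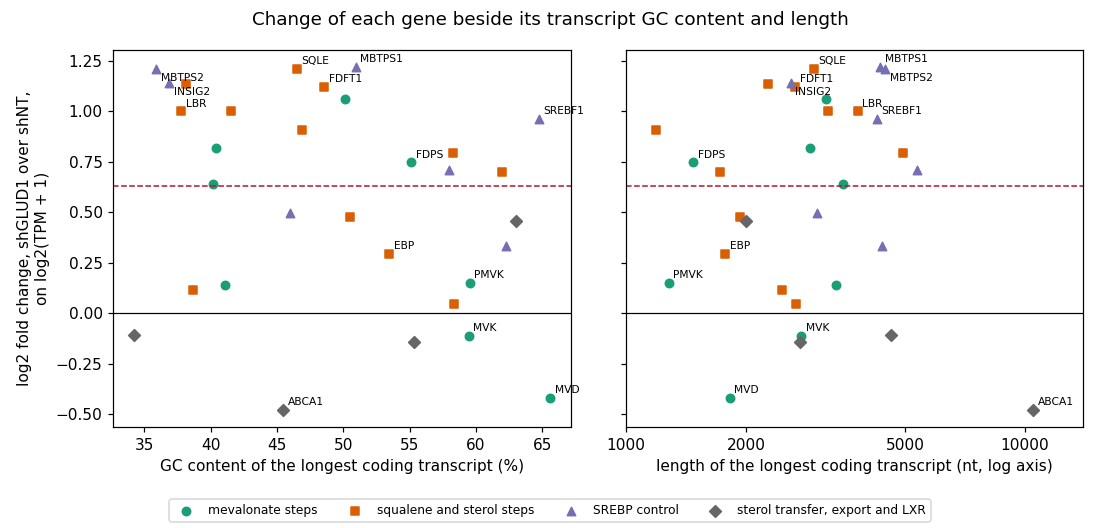
Log2 fold change of each of the 31 genes (vertical axis) against the GC content in percent (left) and the length in nt on a log axis (right) of its longest coding transcript; marks show the roles, the solid line no change, and the dashed line the median of all tested genes. MVD lies at the GC-rich end with the lowest value of the mevalonate steps, while SREBF1 is about as GC-rich and well above the dashed line.

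In addition, 3 groups of the pathway, 55 genes in all, were read for the steps around synthesis. Their counts stand beside the same background as the members', 56.7% of all genes higher and 7.77% lower on TPM, and 23.2% higher and 27.9% lower after rescaling. Of 23 genes of sterol uptake, storage and transport, 20 were tested, 15 rose, 1 fell and 4 did not pass, with a median log2 fold change of 0.82 (rescaled, 6 were higher and 4 lower). SOAT1, which esterifies cholesterol for storage, averaged 19.9 ± 4.6 TPM in shGLUD1 and 5.17 ± 0.63 TPM in shNT (SD, n = 2 each), a log2 fold change of 1.75 (limma adjusted p = 6.2e-05). NCEH1, a cholesteryl ester hydrolase, averaged 9.3 ± 2.3 TPM in shGLUD1 and 2.17 ± 0.021 TPM in shNT (SD, n = 2 each), a log2 fold change of 1.68. OSBPL9, an oxysterol-binding family protein, rose by 1.67, and all of these stayed higher after rescaling (1.06, 1.07 and 1.02). The 1 that fell, GRAMD1C, of the family that moves plasma membrane cholesterol to the endoplasmic reticulum, was named after its values were seen (0.77 ± 0.60 TPM in shGLUD1 and 2.51 ± 0.24 TPM in shNT, SD, n = 2 each, log2 fold change -1.03).

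Of 12 genes of the isoprenoid branches, which use farnesyl and geranylgeranyl units, 7 rose, 1 fell and 4 did not pass, with a median of 0.49 (rescaled, 1 was higher and 2 lower); over all genes tested, 56.7% rose. ICMT, which methylates prenylated proteins, averaged 18.2 ± 3.1 TPM in shGLUD1 and 5.97 ± 0.20 TPM in shNT (SD, n = 2 each), a log2 fold change of 1.45 (rescaled 0.76, limma adjusted p = 0.00319). FNTB and PDSS2, of farnesyl transfer and ubiquinone side chain synthesis, rose by 1.03 and 0.72 and did not pass after rescaling. PDSS2 kept its call in 1 of the 4 fits with a library left out (highest adjusted p = 0.125) and lost it with length and GC trends removed (0.40, adjusted p = 0.079). Of 20 genes of sterol-regulated degradation and of the COPII coat that carries SCAP out of the endoplasmic reticulum, 17 rose, 2 fell and 1 did not pass, with a median of 1.06 (rescaled, 10 were higher and 4 lower). ERLIN1, a membrane scaffold protein that binds cholesterol, averaged 21.6 ± 3.2 TPM in shGLUD1 and 4.7 ± 0.057 TPM in shNT (SD, n = 2 each), a log2 fold change of 1.98 (rescaled 1.29, limma adjusted p = 0.000296). SEC24C and SEC24D, cargo adaptors of the COPII coat, rose by 1.61 and 1.53 (rescaled 0.88 and 0.86). The 2 that fell were AUP1, a lipid droplet and ubiquitin ligase adaptor (-0.56; with length and GC trends removed -0.21, not passed), and SAR1A, the GTPase that starts the coat (-0.61), both named after their values were seen.

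At least 1 log2 unit of increase on log2(TPM + 1) was reached by 7 members, ACAT2, FDFT1, SQLE, MSMO1, INSIG2, MBTPS1 and MBTPS2, where 29.5% of all genes reached it. With each library left out in turn, 13 of the 21 members that rose kept their call (61.9%), against 66.5% of all genes that rose; the genes that kept it were 37.7% of all genes tested. These 13 hold all 7 together with FDPS, GGPS1, LSS, CYP51A1, SREBF1 and NR1H2. The other 8 lost it without at least 1 library, as given for each above.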

How the data were processed

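The authors deposited 1 table of TPM (transcripts per 1000000) with 1 column per library, written to 2 decimals. Per the labels' protocols, 1 µg of total RNA per library went into a TruSeq V2 preparation. Per the submitters' processing notes, the tool was Bowtie 0.12.2 and the builds were mm8 and hg38, with no role named. For the quantifier, annotation, filters and strand setting, nothing is stated by those sources. Values sum to the same total in each library, so a fall in abundant transcripts raises all others. They keep no read totals, so depth is unknown and counting intervals are missing.

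Fits used log2(TPM + 1), which understates changes at low levels, except 1 alternative with a pseudocount of 0.1 TPM. The filter was a mean of 1 TPM or more, and limma 3.58.1 (R 4.3.3) gave the tests (eBayes, trended variance, no term but group, two-sided, Benjamini-Hochberg adjustment over all genes). Limma borrows spread across genes, with a median prior of 8.8 degrees of freedom. The fit was also run on simulated data in which few genes changed, equally in both directions. In the real data most genes rose, so that run does not show how the fit behaves here. Rescaling used median-ratio factors; length and GC trends were removed with a loess fit per library (span 0.5), using the longest coding transcript in GENCODE release 29 on GRCh38. Gene coordinates and exon overlaps came from there too, and promoter windows from RefSeq. All 31 members, GLUD1, genes overlapping a member (those averaging under 5 TPM, apart from RAI1, by count alone), and in each of the 3 further lists the 3 passing genes with the largest change and a mean of at least 5 TPM were named by rule. The members, lists and motifs were chosen with earlier results of these data known. The labels do not say that replicate numbers shared between groups pair libraries. The 12 alternatives are reported in the closing section. Tables and figures used Python 3.11.15, pandas 2.3.3, scipy 1.17.1 and matplotlib 3.10.9.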

Additional observations from a re-analysis of the deposited data

How the results depend on the processing

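The member counts depended on how libraries were scaled. After median-ratio rescaling 4 members were higher and 9 lower (2910 and 3491 of all genes), with a member median of 0.0013. Under quantile normalization 4 were higher (ACAT2, FDPS, FDFT1 and MBTPS1) and 6 lower (2938 and 2764 of all genes), with a median of 0.098. FDFT1 and MBTPS1 were higher, and MVK, MVD, IDI1, DHCR7, ABCA1 and NR1H3 lower, in both of these fits. At a mean of at least 5 TPM 4676 genes were higher, where fewer genes were tested. With each library left out in turn, members higher ranged from 14 to 20 and members lower from 0 to 1, and the member median from 0.49 to 0.82. Over all genes, 5530 to 7229 were higher and 673 to 938 lower. Where an arm was left with 1 library, that library was assumed to vary like the others.

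Signs changed under rescaling for DHCR7 (-0.67), EBP (-0.46), FDPS (-0.012), IDI1 (-0.56), INSIG1 (-0.24), NR1H2 (-0.30), NSDHL (-0.26), PMVK (-0.61), SC5D (-0.33) and SCAP (-0.40). They changed under quantile normalization for DHCR7 (-0.61), HMGCS1 (-0.067), IDI1 (-0.57), INSIG1 (-0.071), NSDHL (-0.084), PMVK (-0.13), SC5D (-0.50), SCAP (-0.24) and TM7SF2 (-0.049), and with length and GC trends removed for IDI1 (-0.12). Both scalings lower nearly all fold changes by construction. With 1 library left out, signs changed in genes that had not passed: DHCR7 without shGLUD1 replicate 2 (-0.052; 0.15 without replicate 1), NR1H3, SC5D and STARD4 without shNT replicate 1 (0.017, -0.27 and 0.018), and STARD4 without shGLUD1 replicate 1 (0.50; -0.71 without replicate 2). Of 365 single-gene values under the alternatives, 277 kept their direction and their side of the threshold.

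Deviations of same-numbered libraries correlated at 0.039, which cannot exclude that they shared a culture or preparation. With the replicate number as a block 21 members were higher and 1 lower (7395 and 1061 of all genes). With no filter on low values 15 members were higher, and with no variance trend 19. A pseudocount of 0.1 TPM in place of 1 TPM left 21 members higher and 1 lower (7080 and 975 of all genes). The member median was then 0.76. Depth is unknown, so the precision of genes near 1 TPM, such as SC5D, MBTPS2 and LBR in shNT, cannot be given beyond the spread of 2 libraries.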
